A study of Mus musculus with 4 samples.

Results

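DNA replication and mitosis genes are read as a record of how actively cells divide, and they are compared here between embryoid bodies (EBs) formed by WT mouse embryonic stem cells (mESCs) and by mESCs that lack the promoter of NEMEP. The members are the rows of the expression files whose gene symbol stands in a list of 40 genes, 20 for replication in S phase and 20 for mitosis. All 40 were found among 24347 gene rows, and all 40 passed the filter on low values described below. The phases were compared apart.

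The study asked what NEMEP, a micropeptide encoded by Gm11549, does when mESCs leave pluripotency and form mesendoderm, the common precursor of mesoderm and endoderm. EBs are aggregates in which mESCs differentiate after the cytokine LIF is withdrawn. RNA was sequenced from day 3 EBs of strain 129/Ola, labelled as ES-derived mesendoderm cells, with no further treatment. There were 2 samples of genotype WT and 2 of genotype NEMEP promoter-KO, here named WT1, WT2, KO1 and KO2, where KO is short for promoter KO.

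The promoter had been deleted with CRISPR/Cas9, and lines were grown from single sorted cells, so that a difference between the genotypes can also be a difference between clones. The labels do not say which line each KO sample came from. The study calls its samples biologically independent, and the p-values measure only the spread between these 4 samples. Gm11549 itself was listed at 0.75 FPKM in WT1, 0.522 in WT2, 0 in KO1 and 0.0659 in KO2, in the direction of the labels but below the filter in every sample.

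FPKM counts fragments for each kilobase of a transcript, scaled to all fragments mapped in the sample, so levels can be set side by side between genes. The values summed to 677777 FPKM in WT1, 696928 in WT2, 673951 in KO1 and 679870 in KO2. The lowest values of genes with a single annotated transcript gave an estimated depth of 24700000 fragments for WT1, 21900000 for WT2, 21500000 for KO1 and 20100000 for KO2. Fold changes are differences of log2(FPKM + 1), KO minus WT, tested with limma in 11941 genes, those with 1 FPKM or more in 2 or more samples, and a gene is called when its adjusted p is under 0.05. The smallest two-sided p of an exact permutation test with 2 samples against 2 is 0.333, and the calls therefore lean on the variance pooled over genes by limma.

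A dividing cell first licenses its replication origins by loading the MCM helicase, then copies its DNA in S phase with clamp loaders, sliding clamps and polymerases, and later condenses, aligns and separates the chromosomes in mitosis. Genes for the S phase machinery are classically transcribed under the control of E2F factors. Genes for mitosis are transcribed later in the cycle, through promoters that often carry a cell cycle homology region (CHR) and CCAAT boxes, bound by the DREAM and MYB-MuvB complexes and by NF-Y. Mouse embryonic stem cells divide fast, with a short G1 phase, and express both programs strongly.

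This division of labour could be seen in the members' promoters. Their letters were not used to choose the members. The motifs searched are those already known for both programs, however, so their frequency is no independent test. RefSeq promoters (GRCm38.p6), each 300 bases with 250 before the start of the gene and 50 from it on, were available for 32 of the 40 members, as 16 promoters of 15 replication genes and 17 promoters of 17 mitosis genes. The members named only are Mcm4, Gins1, Gins2, Pole, Ccne2, Aurkb, Tpx2 and Kif20a. The motifs were searched on both strands by their letters: TTTGGCGC, TTTCCCGC, TTTCGCGC and TTTGCCGC for E2F, TTTGAA and TTCGAA for CHR, and CCAAT. E2F letters can overlap one another, as in Mcm6, and TTCGAA reads the same on both strands.

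An E2F motif stood in 7 of the 16 replication promoters (43.8%), in 1 of the 17 mitosis promoters (5.88%) and in 2.26% of all 32851 promoters of that length. A CHR motif stood in 13 mitosis promoters (76.5%), in 2 replication promoters (12.5%) and in 19.2% of all promoters. CCAAT stood in 15 mitosis promoters (88.2%), in 10 replication promoters (62.5%) and in 37.4% of all promoters, and CHR and CCAAT stood together in 13 mitosis promoters against 7.52% of all. The replication genes with an E2F motif were Mcm3, Mcm5, Mcm6, Mcm7, Cdc6, Cdt1 and Pola1, and the mitosis gene was Cdk1. A match is a description of the letters, and no match says only that they are not in this window.

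**Figure D1:**
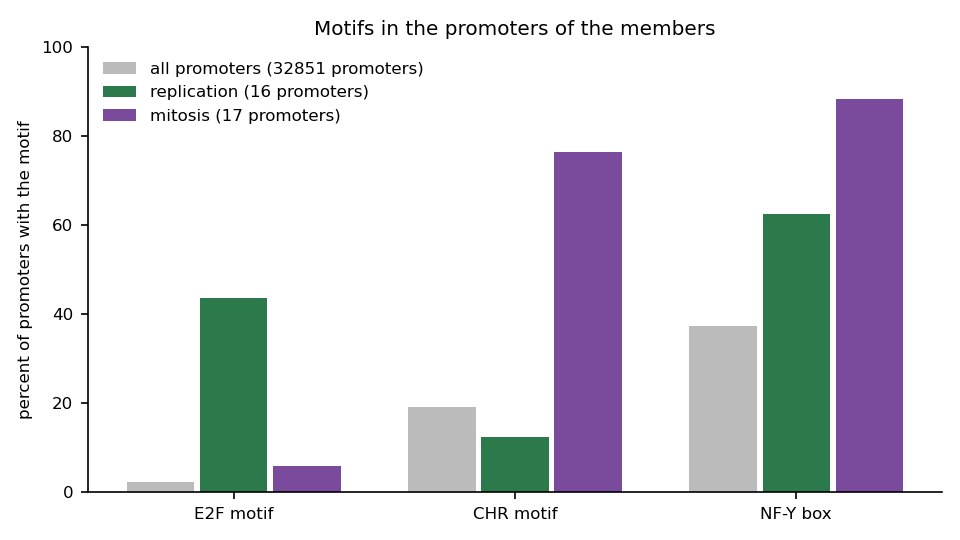
Bars give the percent of promoters that hold each motif, for all 32851 promoters, the 16 replication promoters and the 17 mitosis promoters. The E2F motif is most frequent in replication promoters (43.8%) and the CHR motif in mitosis promoters (76.5%). The NF-Y box is the CCAAT motif.

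The promoters printed here belong to the members with the smallest p of each phase that have a promoter in the table (Rfc4 and E2f1, Ccnb2 and Bub1), to Cdc6 and Mcm6 as replication genes with E2F letters, and to Ccnb1 as the sister gene of Ccnb2. The last 3 were chosen after their values were seen. Each runs 5′ to 3′ on the strand of the gene, from 200 bases before the start to 30 bases from it on, with every E2F, CHR or CCAAT match in capitals.
Rfc4 (chr16:23127701-23127930, minus strand): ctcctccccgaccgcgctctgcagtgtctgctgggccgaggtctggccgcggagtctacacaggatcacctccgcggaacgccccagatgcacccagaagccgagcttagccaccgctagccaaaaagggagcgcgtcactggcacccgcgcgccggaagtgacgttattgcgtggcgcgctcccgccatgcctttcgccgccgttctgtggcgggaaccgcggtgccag
E2f1 (chr2:154569397-154569626, minus strand): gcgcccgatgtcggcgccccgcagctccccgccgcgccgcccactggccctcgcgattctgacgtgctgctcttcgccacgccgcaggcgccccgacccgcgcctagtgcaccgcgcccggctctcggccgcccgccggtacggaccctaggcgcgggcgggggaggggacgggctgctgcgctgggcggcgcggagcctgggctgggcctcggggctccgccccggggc
Cdc6 (chr11:98907951-98908180, plus strand): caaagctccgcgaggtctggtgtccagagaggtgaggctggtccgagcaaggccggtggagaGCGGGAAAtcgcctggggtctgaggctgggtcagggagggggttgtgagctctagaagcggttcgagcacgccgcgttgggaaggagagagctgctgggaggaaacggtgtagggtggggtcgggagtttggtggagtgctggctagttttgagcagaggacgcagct
Mcm6 (chr1:128359676-128359905, minus strand): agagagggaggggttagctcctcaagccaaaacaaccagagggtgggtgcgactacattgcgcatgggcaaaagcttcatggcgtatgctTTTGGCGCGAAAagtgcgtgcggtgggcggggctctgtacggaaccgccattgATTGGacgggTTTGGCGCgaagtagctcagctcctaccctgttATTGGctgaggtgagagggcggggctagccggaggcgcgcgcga
Ccnb2 (chr9:70421525-70421754, minus strand): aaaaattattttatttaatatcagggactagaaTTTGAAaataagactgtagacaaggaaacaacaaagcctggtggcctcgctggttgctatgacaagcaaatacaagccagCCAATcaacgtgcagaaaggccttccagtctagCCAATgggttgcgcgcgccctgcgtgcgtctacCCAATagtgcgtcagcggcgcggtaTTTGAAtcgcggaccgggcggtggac
Bub1 (chr2:127831830-127832059, minus strand): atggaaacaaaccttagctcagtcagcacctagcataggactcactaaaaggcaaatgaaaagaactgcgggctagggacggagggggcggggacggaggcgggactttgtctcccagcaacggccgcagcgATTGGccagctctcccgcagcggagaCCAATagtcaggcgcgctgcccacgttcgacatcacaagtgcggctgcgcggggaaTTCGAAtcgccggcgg
Ccnb1 (chr13:100786457-100786686, minus strand): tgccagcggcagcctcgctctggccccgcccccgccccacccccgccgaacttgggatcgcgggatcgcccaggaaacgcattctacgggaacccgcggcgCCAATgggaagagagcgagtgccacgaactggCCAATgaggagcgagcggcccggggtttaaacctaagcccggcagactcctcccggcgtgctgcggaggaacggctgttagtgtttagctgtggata

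Rfc4 and E2f1 held none of the searched letters. The GENCODE start of E2f1 lies 466 bases before the RefSeq start, so its whole window stands inside the GENCODE gene. Another window would be read for a transcript that begins at the GENCODE start. Cdc6 held 1 E2F match, which begins at -138. The GENCODE start of Cdc6 lies 350 bases before the RefSeq start, so this match stands inside the GENCODE gene. Mcm6 held E2F matches that begin at -110, -106 and -47, the first pair overlapping, with CCAAT on the other strand at -57 and -14. Ccnb2 held CHR letters at -167 and 5 and CCAAT at -87, -54 and -21, and Bub1 held CHR letters at 15 with CCAAT at -42 and, on the other strand, at -68. Ccnb1 held CCAAT at -99 and -67 and no CHR letters, unlike Ccnb2, and its GENCODE start lies 84 bases before the RefSeq start, so the nearer CCAAT stands inside the GENCODE gene. Positions count from 1 at the first base of the gene, with negative positions before it.

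The members were expressed at high and very different levels. Their values ran from 5.22 to 387 FPKM, and the order of the levels was nearly the same in every sample, with a Spearman correlation across the 40 genes of 0.996 between the WT samples, 0.994 between the KO samples and 0.975 to 0.987 between samples of different genotype. Genes are not independent replicates, and these correlations mostly reflect how far apart the genes' levels lie. In WT the highest members were Pcna, Cdc20, Mcm7, Mcm3 and Mcm2, and the lowest were Pola1, Cenpe and Ccne2. The largest moves in rank were those of Ccne1, from 19 in WT to 12 in KO, and of Ccnb2, from 13 to 20.

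**Figure D2:**
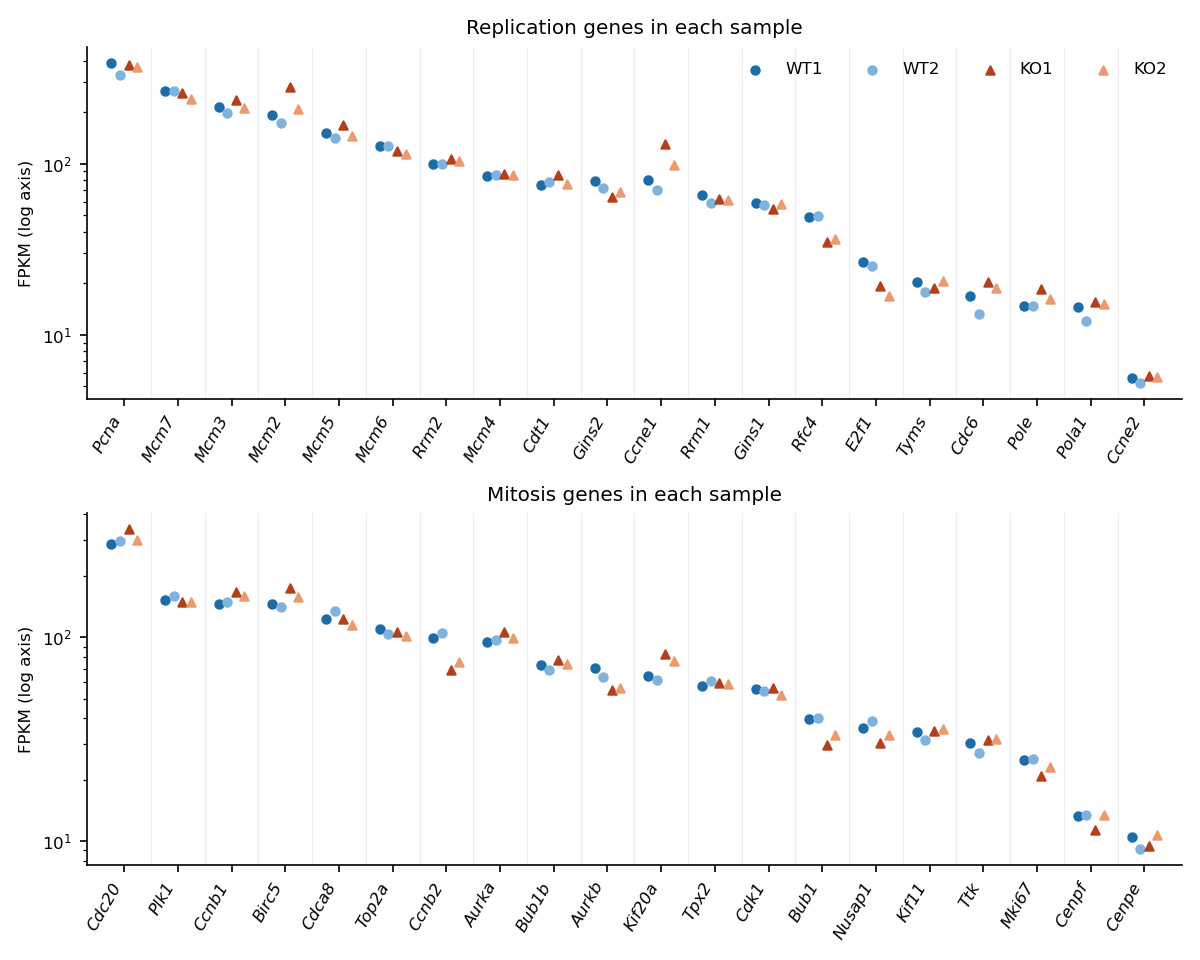
Points give the FPKM (log axis) of each replication gene (upper panel) and each mitosis gene (lower panel) in WT1, WT2, KO1 and KO2, with genes ordered by their WT mean. The 4 samples lie close together for most genes, and the KO points stand apart below for Rfc4, E2f1 and Ccnb2 and above for Ccne1.

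Averaged over each phase, the samples lay close together. The mean log2(FPKM + 1) of the 20 replication genes was 5.99 in WT1, 5.89 in WT2, 6.03 in KO1 and 5.94 in KO2, so the genotypes overlapped, and their difference of 0.05 was smaller than the standard deviation of 0.07 between samples of 1 genotype. For the 20 mitosis genes the mean was 5.98 in WT1, 5.97 in WT2, 5.94 in KO1 and 5.95 in KO2. Here each KO sample was below each WT sample, and the difference of -0.03 was larger than the standard deviation of 0.01 between samples of 1 genotype. Centring each sample on its median raised fold changes by about the size of this difference, as in Ccnb2 (from -0.49 to -0.46). The difference therefore depends on the scaling. In summed FPKM the mitosis genes overlapped, with 1668 and 1680 in WT and 1732 and 1657 in KO, and the mean was higher in KO. The replication genes also overlapped there, with 2026 and 1891 in WT and 2161 and 1960 in KO, and the mean was higher in KO on both scales. In whole EBs, fewer cells of a kind and less RNA per cell cannot be told apart.

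Gene by gene, limma called 0 replication genes lower and 0 higher, and it called 1 mitosis gene, Ccnb2, lower and 0 higher. Among all 11941 genes 1.89% were called lower (226 genes) and 1.68% higher (201 genes), so counts of 0 and 1 in 20 are near that background. At an unadjusted p under 0.05 there were 2 replication genes lower and 3 higher, and 3 mitosis genes lower and 2 higher, against 15.6% of all genes lower and 15% higher. Each KO sample lay below each WT sample in 5 replication and 6 mitosis genes, and above them in 7 and 8, against 32.4% and 32.9% of all genes.

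These counts depend on the fit and on single samples. With the replicate number as block, limma called 667 genes lower and 535 higher. Among them were 2 replication genes lower (Rfc4 and E2f1), 2 higher (Mcm2 and Ccne1) and Ccnb2. The numbers were not taken to pair the samples, as described at the end. Without WT2, or without KO1, limma called 0 genes in the whole series, with 976 lower and 899 higher at an unadjusted p under 0.05 in the first case and 1043 and 966 in the second. Without WT1 it called 114 lower and 61 higher, and without KO2 it called 248 and 238.

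The fold changes of the members centred on 0. Their median was 0.06 for replication, with 13 genes above 0 and 7 below, and -0.01 for mitosis, with 9 above and 11 below, beside 0.00 for all genes. The sign of the mitosis median is not stable, since it was 0.02 after centring each sample on its median. The median size of a fold change, whatever its sign, was 0.11 in replication and 0.12 in mitosis genes, and 0.21 over all genes. All genes here include many at lower levels than the members, and no comparison with genes of like level was made. The fitted fold change was over 1.5-fold in either direction for 0 of the 40 members and for 11.4% of all genes. Ccne1 lay just under that bound, and it passed it with a pseudocount of 0.1 (0.590), after median centring (0.615), without WT1 (0.677) and without KO2 (0.791), while Mcm2 passed it without KO2 (0.624) and E2f1 without KO1 (-0.598).

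How small a difference these samples leave room for is given by the 95% confidence intervals of the fit. They lay within 2-fold for all 40 members (87.8% of all genes) and within 1.5-fold, or 0.58 on the log2 scale, for 15 replication and 19 mitosis genes (56.1% of all genes). The members are highly expressed, and their median standard error was 0.09 against 0.13 over all genes. The 6 members whose interval passed 1.5-fold were Mcm2, Cdc6, Rfc4, Ccne1, E2f1 and Ccnb2.

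**Figure D3:**
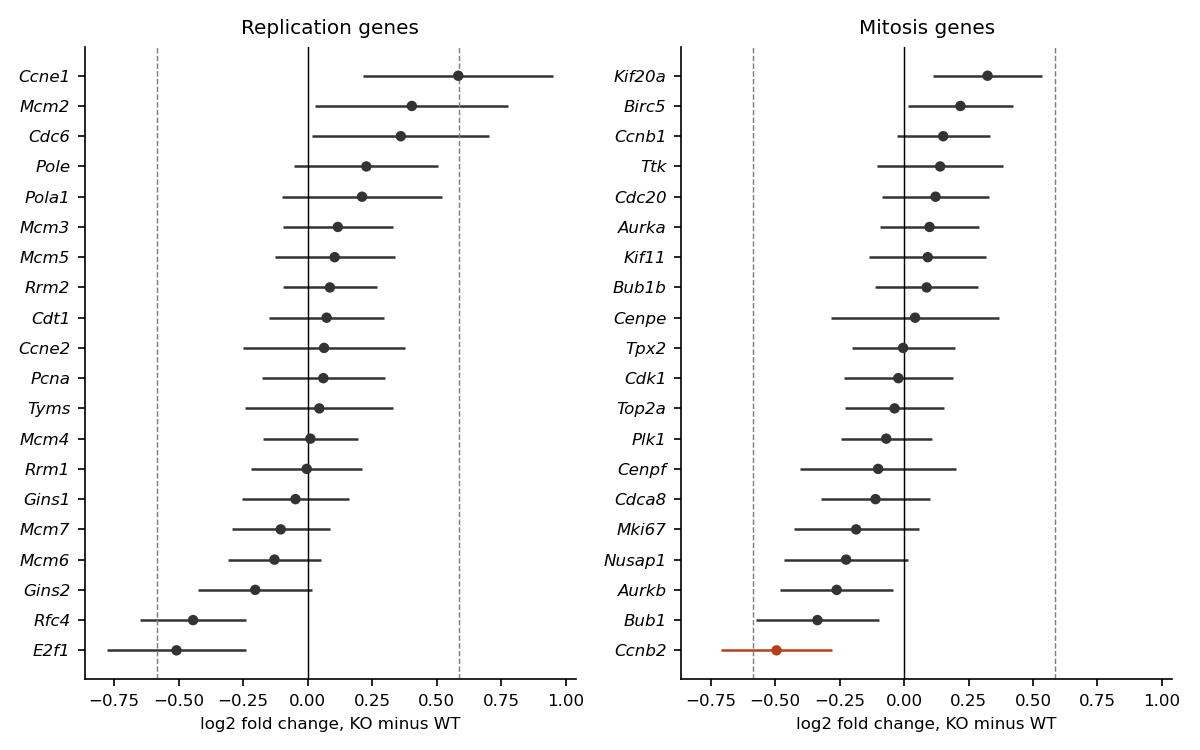
Points give the log2 fold change of each member, KO minus WT, and lines its 95% confidence interval from limma, for replication genes (left) and mitosis genes (right). Dashed lines mark 1.5-fold (0.58), and Ccnb2, at -0.49, is drawn in red as the member called.

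Among the replication genes, the helicase and the clamp come first. MCM2 to MCM7 form the ring that unwinds DNA at the fork. Mcm2 stood at 193 and 172 FPKM in WT1 and WT2 and at 282 and 207 FPKM in KO1 and KO2. Both KO samples were above both WT samples, KO1 by far the higher, and the fold change was 0.40 (SE 0.15, limma adjusted p = 0.144). It was 0.18 without KO1 (limma adjusted p = 0.424) and 0.62 without KO2 (limma adjusted p = 0.0511).

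The other subunits had smaller values. Mcm3 to Mcm7 had fold changes from -0.13 (Mcm6) to 0.12 (Mcm3). As a share of the summed FPKM of Mcm2 to Mcm7, Mcm2 made up 18.7% in WT1, 17.4% in WT2, 24.5% in KO1 and 20.7% in KO2, while Mcm7, the most abundant in WT, made up 25.8%, 27.0%, 22.6% and 23.7%. These shares were computed after the values were seen. Mcm2 is the only member on chromosome 6, where the median fold change of all 531 tested genes was 0.13, while it lay between -0.04 and 0.03 on the other autosomes and on X. Its part in the value of Mcm2 was not tested.

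Pcna encodes the sliding clamp that holds polymerases on DNA, and it had the highest level of the replication genes. It stood at 387 FPKM in WT1, 328 in WT2, 378 in KO1 and 365 in KO2. The genotypes overlapped, the widest gap being that between the WT samples, and the fold change was 0.06 with an interval from -0.18 to 0.30 (limma adjusted p = 0.703).

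Rfc4 encodes a subunit of the clamp loader that places PCNA on DNA, and it had the smallest p of the phase. It lies at chr16:23113943-23127737 and shares exon sequence with Eif4a2 on the opposite strand. Rfc4 stood at 48.5 and 49.1 FPKM in WT1 and WT2 and at 34.8 and 36.4 FPKM in KO1 and KO2. The samples of each genotype lay close together and the genotypes apart, with a fold change of -0.44 (SE 0.08) that missed the threshold (limma adjusted p = 0.0509). Eif4a2 stood at 133, 141, 117 and 135 FPKM in the same order, with genotypes that overlapped. Whether the counting used the strand is not given in the sources used here.

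The remaining enzymes of DNA synthesis showed little. Rrm1 and Rrm2 (ribonucleotide reductase), Tyms (thymidylate synthase), Pola1 and Pole (polymerase subunits), Gins1 and Gins2 (helicase cofactors) and Cdt1 (a licensing factor) had fold changes from -0.20 (Gins2) to 0.23 (Pole). Pole was at 0.13 without KO1 and 0.32 without KO2. Cdc6, which loads the helicase together with Cdt1, stood at 16.9 and 13.3 FPKM in WT EBs, against 20.3 and 18.7 FPKM in KO, with a fold change of 0.36 (limma adjusted p = 0.151), which was 0.52 without WT1 and 0.20 without WT2. Its values are given because its interval passed 1.5-fold.

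The genes that govern entry into S phase held the largest fold changes of the phase, in opposite directions and without a call. E2f1 encodes a transcription factor that activates replication genes. It lies at chr2:154559407-154569892 and stood at 26.7 FPKM in WT1, 25.1 in WT2, 19.1 in KO1 and 16.8 in KO2. Both KO samples were below both WT samples, with a fold change of -0.51 (SE 0.11, limma adjusted p = 0.0585).

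Ccne1 encodes cyclin E1, the partner of CDK2 at the start of S phase, and lies at chr7:38097984-38107534. It stood at 80.1 FPKM in WT1, 70.3 in WT2, 131 in KO1 and 97.7 in KO2. Both KO samples were above both WT samples, KO1 again the higher, with a fold change of 0.58 (SE 0.15, limma adjusted p = 0.0740). The fold change was 0.38 without KO1 (limma adjusted p = 0.245), and 0.79 without KO2, where it passed the threshold (limma adjusted p = 0.0439, with a range of 0.0257 to 0.321 over the alternatives). Ccne2, for cyclin E2, had the lowest level of all members, at 5.60 and 5.22 FPKM in WT EBs, against 5.76 and 5.64 FPKM in KO. Its exons overlap those of Ints8 on the opposite strand, which stood at 24.4, 21.5, 21.9 and 23.1 FPKM in WT1, WT2, KO1 and KO2.

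Of the mitosis genes, the cyclin B genes held the only call. B cyclins activate CDK1 to drive cells into mitosis. Ccnb2 lies at chr9:70407692-70421547 and stood at 98.7 FPKM in WT1, 105 in WT2, 68.8 in KO1 and 75.4 in KO2. It fell by 0.49 on the log2 scale in KO (SE 0.09, limma adjusted p = 0.0472), to 0.707 of its WT level, and was lower in both KO samples than in both WT samples.

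The call is close to the threshold. It was lost under 8 of 11 alternatives with the direction kept, and the adjusted p ranged from 0.0262 to 0.245. Without WT1 it was 0.10, without WT2 0.245, without KO1 0.177 and without KO2 0.0507.

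Ccnb1, for the other B cyclin, stood at 146 FPKM in WT1, 148 in WT2, 168 in KO1 and 159 in KO2, with a fold change of 0.15 (limma adjusted p = 0.220). The ratio of Ccnb2 to Ccnb1 was therefore 0.677 in WT1, 0.710 in WT2, 0.411 in KO1 and 0.473 in KO2. The genotypes did not overlap in this ratio, which was chosen after the values were seen and was not tested.

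Cdk1, the kinase that B cyclins activate, stood at 55.5 FPKM in WT1, 54.6 in WT2, 56.4 in KO1 and 52.0 in KO2. Its fold change was -0.02 with an interval from -0.23 to 0.19 (limma adjusted p = 0.883). Cdc20, which activates the anaphase-promoting complex, had the highest level of the mitosis genes, at 288, 298, 338 and 300 FPKM in the same order, and a fold change of 0.12 (limma adjusted p = 0.364), which was 0.04 without KO1 and 0.21 without KO2. Plk1 and Aurka, kinases of mitotic entry and the spindle pole, had fold changes of -0.07 and 0.10.

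The chromosomal passenger complex, in which Aurora B kinase acts with survivin and borealin, held genes of both directions. Aurkb stood at 70.7 and 63.6 FPKM in WT EBs, against 55.3 and 56.3 FPKM in KO, with a fold change of -0.26 (SE 0.09, limma adjusted p = 0.122). Birc5, which encodes survivin, stood at 145 and 140 FPKM in WT EBs, against 175 and 158 FPKM in KO, with a fold change of 0.22 (SE 0.08, limma adjusted p = 0.145). Genotypes were apart in both genes but in opposite directions. Cdca8, for borealin, had a fold change of -0.11 (-0.18 without WT1, -0.04 without WT2) with genotypes that overlapped.

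In the spindle checkpoint, which delays anaphase until every chromosome is attached, Bub1 had the largest difference. It lies at chr2:127801122-127831865 and stood at 39.7 FPKM in WT1, 40.1 in WT2, 29.6 in KO1 and 33.3 in KO2, a fold change of -0.34 (SE 0.10, limma adjusted p = 0.0890). The related Bub1b had a fold change of 0.09 (0.13 without WT1, 0.04 without WT2). That of the checkpoint kinase gene Ttk was 0.14 (0.22 without WT1, 0.06 without WT2).

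Of the motors and spindle proteins, Kif20a, a kinesin of the central spindle that works in cytokinesis, stood at 64.8 and 62.0 FPKM in WT EBs, against 83.1 and 76.3 FPKM in KO. It was higher in both KO samples, with a fold change of 0.32 (SE 0.09, limma adjusted p = 0.0769). Its exons overlap those of Cdc23 on the opposite strand, which stood at 33.4, 33.6, 35.5 and 35.4 FPKM in WT1, WT2, KO1 and KO2. Cenpe, a kinetochore kinesin with the lowest level of the mitosis genes, stood at 10.5, 9.12, 9.50 and 10.8 FPKM in that order, with overlapping genotypes. Kif11, Tpx2, Cenpf and Nusap1 had fold changes of 0.09, 0.00, -0.10 and -0.22.

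Mki67 and Top2a are widely used as markers of dividing cells. Mki67, which encodes the Ki-67 protein of the chromosome surface, stood at 24.9 FPKM in WT1, 25.4 in WT2, 21.0 in KO1 and 23.0 in KO2. Both KO samples were lower, and the fold change of -0.19, with an interval from -0.43 to 0.06, did not pass the test (limma adjusted p = 0.253). With KO1 left out the fold change was -0.12, and with KO2 left out it was -0.25. Top2a, for the topoisomerase that untangles sister chromatids, stood at 110 FPKM in WT1, 104 in WT2, 106 in KO1 and 102 in KO2. Its genotypes overlapped, and the fold change of -0.04 had an interval from -0.23 to 0.15 (limma adjusted p = 0.773).

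Fold changes were also read by promoter motif. The 7 replication genes with an E2F motif had a median fold change of 0.10 and ran from -0.13 to 0.36. The 8 with a promoter and no such motif had a median of 0.05 and ran from -0.51 to 0.58. The value of -0.51 is that of E2f1, whose window stands inside the GENCODE gene. The 13 mitosis genes with a CHR motif had a median of -0.04 and ran from -0.49 to 0.14, and the 4 without had a median of 0.10 and ran from -0.22 to 0.22. These groups were formed after the values were seen and were not tested.

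Other genes of the same pathways are given from lists that hold none of the members. Of 46 further replication genes (origin recognition, polymerase, clamp loader, nucleotide supply and chromatin assembly), limma called 0 lower and 0 higher. At an unadjusted p under 0.05 there were 3 lower (6.52%) and 10 higher (21.7%), beside 15.6% and 15% of all genes. Their median fold change was 0.16, with 29 above 0 and 17 below, and they ran from -0.40 to 0.53. This median depended on single samples and was clearly smaller without WT2 or without KO1. Of the 46 genes, 11 turned sign under at least 1 alternative. Both KO samples were above both WT samples in 22 of the 46 and below in 8, beside 32.9% and 32.4% of all genes. The smallest p belonged to Pold2, for a subunit of the lagging strand polymerase, at 156 and 152 FPKM in WT EBs, against 119 and 122 FPKM in KO, with a fold change of -0.35 (limma adjusted p = 0.0570). Lig1, for the ligase that joins Okazaki fragments, stood at 126 and 146 FPKM in WT EBs, against 101 and 104 FPKM in KO, with a fold change of -0.40 (limma adjusted p = 0.0670). Hells, for a chromatin remodeler and named after its values were seen, had the highest fold change of the list, at 60.2 and 49.5 FPKM in WT EBs, against 85.4 and 73.8 FPKM in KO, with a value of 0.53 (limma adjusted p = 0.0671).

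Of 51 further mitosis genes, limma called 0 lower and 2 higher, beside 1.89% and 1.68% of all genes. At an unadjusted p under 0.05 there were 3 lower (5.88%) and 10 higher (19.6%), beside 15.6% and 15% of all genes, and the median fold change was 0.02. Ckap2, for a spindle-associated microtubule protein, stood at 23.4 and 25.6 FPKM in WT EBs, against 48.1 and 39.5 FPKM in KO, and rose by 0.81 (SE 0.12, limma adjusted p = 0.0391). Gtse1, for a microtubule-associated protein of G2 and S phase, stood at 63.6 and 59.5 FPKM in WT EBs, against 121 and 95 FPKM in KO, and rose by 0.79 (SE 0.13, limma adjusted p = 0.0423). Both genes were higher in both KO samples. Both calls were lost under 5 of the 11 alternatives, where the adjusted p was above 0.05: without WT1 (0.0949 for Ckap2 and 0.0893 for Gtse1), without WT2 (0.195 and 0.216), without KO1 (0.142 and 0.132), with no filter (0.143 and 0.144) and by limma without trend (0.0642 and 0.0677). The range over the alternatives was 0.0255 to 0.195 and 0.0148 to 0.216.

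The most negative fold change of that list was that of Pttg1, which encodes securin and is named after its values were seen. It stood at 111 and 85.1 FPKM in WT EBs, against 42.3 FPKM in KO1 but 89.5 FPKM in KO2. The fold change of -0.65 (SE 0.34, limma adjusted p = 0.24) was -0.12 without KO1 (limma adjusted p = 0.743) and -1.18 without KO2 (limma adjusted p = 0.0469).

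Ccna2, for cyclin A2, lies near Gm11549 on chromosome 3, at chr3:36564865-36572150. It stood at 80.5 FPKM in WT1, 79.3 in WT2, 84.7 in KO1 and 80.3 in KO2, with overlapping genotypes and a fold change of 0.05 (limma adjusted p = 0.725), the sign of which turned under quantile normalization. Exosc9, which overlaps it on the opposite strand, had a fold change of 0.16 (limma adjusted p = 0.292).

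The regulators of both programs, E2F factors, pocket proteins and the subunits of DREAM and MYB-MuvB, gave 0 called genes among 17 tested, with 2 lower (11.8%) and 3 higher (17.6%) at an unadjusted p under 0.05, beside the same 15.6% and 15% of all genes, and a median fold change of 0.09. Rbl2 was below the filter. E2f5 stood at 23.3 and 27.0 FPKM in WT EBs, against 16.8 and 16.6 FPKM in KO, with a fold change of -0.56 (limma adjusted p = 0.0541). Mybl2, for B-MYB, stood at 55.2 and 61.8 FPKM in WT EBs, against 112 and 75.6 FPKM in KO1 and KO2, with a fold change of 0.65 (limma adjusted p = 0.0879). It was 0.37 without KO1 (limma adjusted p = 0.245), and 0.93 without KO2, where it passed the threshold (limma adjusted p = 0.0394, range 0.0394 to 0.288 over the alternatives).

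**Figure D4:**
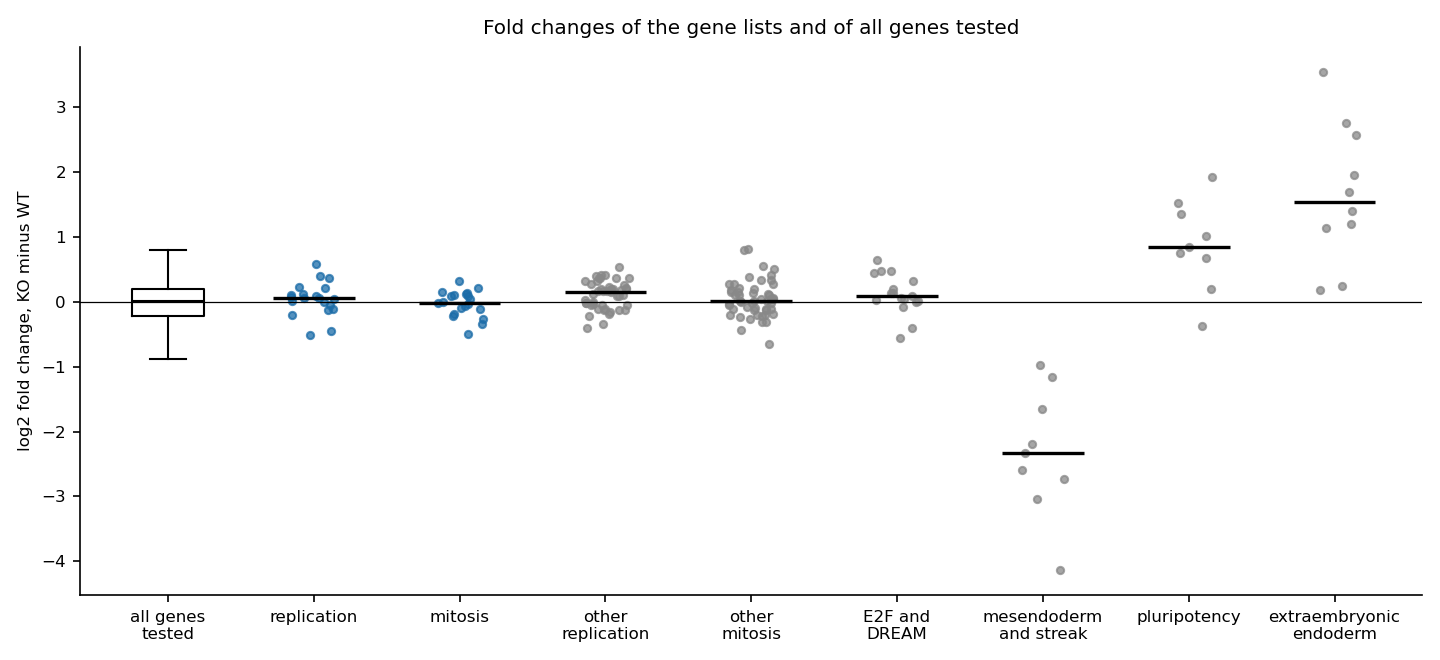
Points give the log2 fold change, KO minus WT, of each tested gene of a list, and thick lines the list's median. The box spans the quartiles of all 11941 genes tested and its whiskers the central 95%. Both phases sit near 0 (medians 0.06 and -0.01). The medians of mesendoderm and streak (-2.33), pluripotency (0.85) and extraembryonic endoderm markers (1.54) lie far from it. The median of the 2 neuroectoderm markers tested was 0.14, from 1.38 for Neurod1 and -1.10 for Nes.

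Markers of the cell types in the EBs, in contrast, differed widely between the genotypes. These lists were chosen with earlier results of these data known, and the study had reported lower mesendoderm genes in these KO EBs. Of 9 mesendoderm and streak markers, 6 were called lower and 0 higher, beside 1.89% and 1.68% of all genes. Their median fold change was -2.33. Their summed level was 790 FPKM in WT1, 1024 in WT2, 152 in KO1 and 320 in KO2, with T the most abundant, and each was above 0 in every sample. T itself stood at 306 and 448 FPKM in WT EBs, against 50.5 and 127 FPKM in KO, and missed the threshold (limma adjusted p = 0.0509), as did Eomes (0.0547) and Foxa2 (0.154). All 9 were lower in both KO samples than in both WT samples, beside 32.4% of all genes. The defining markers of the labelled cell type were thus above 0 in all samples, though some were low in KO. Mesp1 stood at 27.0 and 101 FPKM in WT EBs, against 0.759 FPKM in KO1 and 4.24 FPKM in KO2.

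Of 9 pluripotency markers, 2 were called higher (Utf1 and Dnmt3l) and 0 lower, beside 1.68% and 1.89% of all genes. The study had already named both, with Esrrb, from these data as genes that did not decline in KO. The count is therefore no independent support. The median fold change of the 9 markers was 0.85. They summed to 2074 FPKM in WT1, 1795 in WT2, 3063 in KO1 and 2598 in KO2, and Pou5f1 was the most abundant. Both KO samples were above both WT samples in 7 of them, beside 32.9% of all genes, and Klf4 overlapped. Nanog went the other way, at 140 and 113 FPKM in WT EBs, against 94.1 and 98.7 FPKM in KO, with a fold change of -0.38 (limma adjusted p = 0.0974). Of 10 extraembryonic endoderm markers, 7 were called higher and 0 lower, beside the same shares of all genes. They summed to 61.8, 85.1, 186 and 230 FPKM in WT1, WT2, KO1 and KO2, with Sparc the most abundant. Genotypes overlapped in Gata4 (5.02, 19.4, 9.68 and 13.8 FPKM in the same order) and Apoa1 (0.583, 1.42, 0.243 and 3.30 FPKM). Of 5 neuroectoderm markers, Pax6, Sox1 and Zic1 were below the filter. Of the 2 tested, Neurod1 was called higher and 0 were called lower, beside the same shares of all genes. Nes, the most abundant, stood at 21.6, 24.5, 6.94 and 14.7 FPKM in the same order, and the sums of 22.9, 25.4, 12.6 and 19.1 FPKM follow it. The other 4 were higher in both KO samples, at 3.89 FPKM or less, and the mean log2(FPKM + 1) of the list was higher in KO by 0.30. Markers at 0 in any sample numbered 0 in each list.

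The mean log2(FPKM + 1) of the members differed between the genotypes by 0.05 for replication and -0.03 for mitosis, that of the 46 further replication genes by 0.11 and that of the 51 further mitosis genes by 0.05, while that of the mesendoderm and streak markers differed by -2.31, that of the pluripotency markers by 0.88 and that of the extraembryonic endoderm markers by 1.67. The part of cell composition in the values of the members was not tested.

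**Figure D5:**
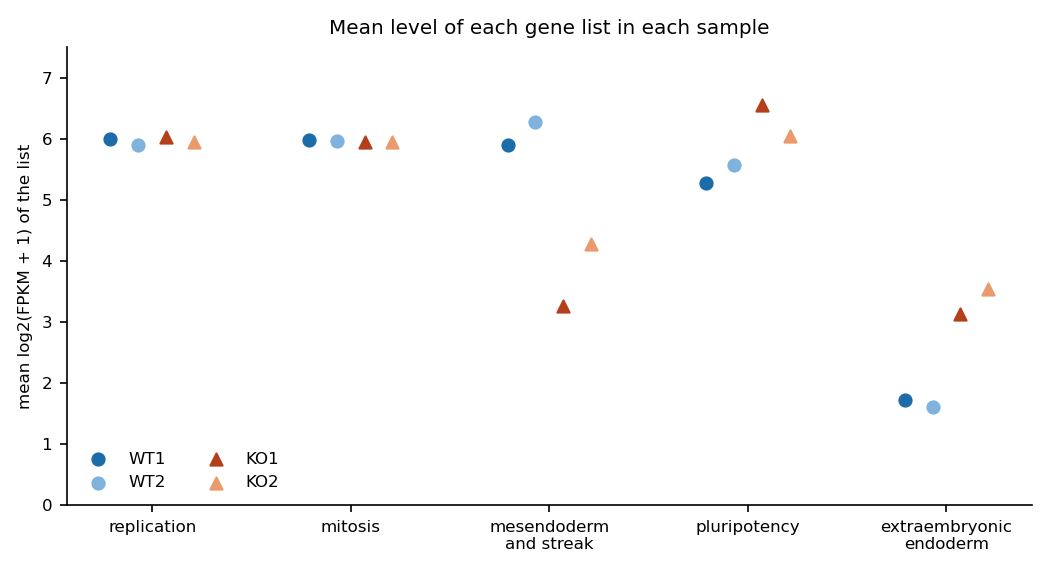
Points give the mean log2(FPKM + 1) over the genes of each list in WT1, WT2, KO1 and KO2. For replication and mitosis the 4 samples lie between 5.89 and 6.03. The genotypes overlap for replication, and for mitosis both KO samples lie below both WT samples, with a difference of -0.03. The marker lists separate the genotypes by larger differences.

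Counting could blur a few members. Of the 40, 11 share exon sequence with another annotated gene, 10 of them on the opposite strand. For 8 members another annotated gene has a transcript at least 95% identical over at least 200 bases, among them Ccnb1, Pcna and Cdc20. Among these 8, such genes have rows of their own in the files for 1 member, Tyms. It matched 19 genes, among them Map3k2 and Wdr59, and 16 of the 19 have rows. A match need not span a whole transcript. How shared reads were assigned is not given in the sources used here.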

How the data were processed

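RNA-seq values of day 3 EBs from 2 WT and 2 NEMEP promoter-KO samples were used, grouped by the genotype in the labels. The authors deposited 1 table per sample, whose values were taken as FPKM. The submitters' processing notes name HISAT2 2.1.0, Cufflinks, Cuffnorm and mm10, while the study's methods name TopHat, Cufflinks with GENCODE annotation, Cuffdiff and the unit RPKM, and which of them made the deposited values is not settled. The deposited values are thus already scaled for transcript length and library size, and no reads entered the work.

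log2(FPKM + 1) was fitted for genotype, with no block, with limma 3.58.1 in R 4.3.3 (lmFit, eBayes with trend) over genes with 1 FPKM or more in 2 or more samples, with Benjamini-Hochberg adjustment over all 11941. Lists were described by counts and medians. The depth of about 20100000 to 24700000 fragments was estimated with an assumed fragment length of 200 bases. The procedure was tested on simulated data. Positions came from GENCODE M21 (GRCm38), near-identical copies from BLAST 2.17.0, and promoters from RefSeq. Python 3.11.15, numpy 2.4.6, pandas 2.3.3 and matplotlib 3.10.9 were used for tables and figures.

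The members and lists were chosen with earlier results of these data known. Named genes are members with an adjusted p under 0.05, the 4 with the smallest p, the 2 highest and 2 lowest fold changes and the highest and lowest level in each phase, and Mki67, Top2a, Pcna, Mcm2, Ccne1, Cdk1 and Ccnb1. From each other list of the pathways they are the genes called and the 2 with the smallest p, and Ccna2. One listed gene, Sgo1, was matched by an older symbol. Alternatives were another pseudocount, filters, limma without trend, centring, quantile normalization, the replicate number as block, and each sample left out.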

Additional observations from a re-analysis of the deposited data

How the results depend on the processing

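The number of samples limits these results: with 2 samples a genotype, each call rests on variance shared between genes, and differences of the sizes seen in most members can go uncalled. What the depth adds to that limit was not tested. The median fold change of replication genes lay between 0.02 and 0.09 under every alternative. That of mitosis genes lay between -0.04 and 0.02, both sides of 0. Mitosis genes called higher numbered 0 under all 11 alternatives.

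Counts of calls moved, and where fewer samples or other genes entered the fit this is part of the alternative, while for the rest the cause was not tested. All genes called lower numbered 0 with no filter (1982 at an unadjusted p under 0.05), 108 at a mean of at least 5 FPKM, 27 by limma without trend and 126 after median centring, against 226. Those called higher numbered 0 (2077 at an unadjusted p under 0.05), 95 and 55 under the first 3 of these, against 201, and 157 after centring. Mitosis genes called lower numbered 0 under these 4, against 1. With 1 sample left out, where the lone sample is assumed to vary like the other genotype, all genes called ranged from 0 to 248 lower and 0 to 238 higher, replication genes from 0 to 0 lower and 0 to 1 higher (Ccne1, without KO2), and mitosis genes from 0 to 0 lower.

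Both genotypes carry replicate numbers 1 and 2 in the labels. Deviations of same-numbered samples correlated at 0.035 across genes, so the numbers were not taken to pair the samples. With the replicate block, 667 genes were called lower and 535 higher, among them 2 replication genes lower (Rfc4 and E2f1), 2 higher (Mcm2 and Ccne1) and 1 mitosis gene lower (Ccnb2). Of the other named genes, Pold2 (limma adjusted p = 0.0467), Lig1 (0.0439) and E2f5 (0.0424) were then called lower and Hells (0.0257) higher.

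Of the named genes, those with fold changes near 0 turned sign: with 1 sample left out, Pcna ranged from -0.058 to 0.180, Cenpe from -0.052 to 0.137, Top2a from -0.074 to 0.0011 and Cdk1 from -0.080 to 0.036, while Cdk1 was 0.0092 after median centring and Ccna2 -0.0014 after quantile normalization. The other genes named by the rule kept their direction under all 11. Over all members, 14 replication and 15 mitosis genes kept it, and those that turned had fold changes of 0.10 or less in size. Small fold changes that kept their direction also moved with 1 sample left out, such as Kif11 (0.03 to 0.15) and Aurka (0.05 to 0.15). A fold change on this scale understates the change of genes with low values.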
